A study of Rattus norvegicus with 24 samples.

Results

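The transcripts described here are those of Actb, Gapdh and Hk1 in rat liver, as read by the array's own control probe sets. Each transcript has 3 such probe sets, lying toward its 3' end, in its middle (M) and toward its 5' end. The rows were chosen by name (AFFX_Rat_beta-actin, AFFX_Rat_GAPDH and AFFX_Rat_Hexokinase), which gave 9 of the 15923 rows of the table. No filter on dim values was applied, and all 9 rows entered every main test. RNA from the liver of Rattus norvegicus, taken from burned or sham rats, was measured on 24 arrays. The 18 arrays of days 2, 4 and 7 were used, 3 burn and 3 sham arrays on each day. The letters b and s of the sample titles were read as burn and sham. Strain, age and sex of the rats, how the burns were made, what the sham rats underwent and whether animals were pooled are not stated in the labels. The 6 arrays of day 1 enter no comparison, because the control names were not taken to hold there.

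Actb encodes beta-actin, a subunit of the actin filaments that shape cells and let them move. Gapdh encodes a glycolytic enzyme made in nearly all cells. Hk1 encodes a hexokinase, which performs the first step of glycolysis, but hepatocytes rely on glucokinase for that step and make little Hk1. Arrays of this kind usually label RNA starting from its poly(A) tail, so the 5' end of a transcript is reached last. The 3' over 5' ratio of control transcripts is therefore in common use as a measure of how much of the RNA's length was labelled.

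The title of burn day 2 replicate 1 marks it as burn, whereas its description speaks of a sham control. The title was followed, and results that rest on this array are given with and without it. The labels do not tell whether replicate arrays hold different animals. The p-values therefore refer only to the spread from array to array, part or all of which may be technical. In whole liver, fewer cells of a type and less RNA per cell cannot be told apart. Outside the control rows, the gene names could not be relied on. The ordinary row listed under Hk1 had a median intensity of 2602, whereas the medians of the 3', M and 5' control rows of Hk1 were 48.0, 89.5 and 21.1. The 9 rows listed under 6 of 7 hepatocyte markers ranged from percentile 7.01 to 97.8 of all rows, and the 9 rows listed under 9 of 12 markers of other liver cell types from 2.89 to 98.5. The labelled tissue, its other cell types and other genes of glycolysis or the cytoskeleton could therefore not be checked by name, and no gene is named as resembling these transcripts.

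Values are given as log2(signal + 16) after quantile normalization, or, where said, as deposited linear intensity. Fold changes on this log2 scale understate the change of dim rows. The level of a transcript is the mean of its 3 probe sets, and its 3' over 5' ratio is the log2 difference of the 3' and 5' rows. Probe sets differ in affinity, so ratios are compared between arrays and their size is not read by itself. Levels and ratios were tested by exact permutation over arrays, two-sided for burn against sham, in 24 tests with Benjamini-Hochberg adjustment over all 24. With 3 arrays against 3, an exact test cannot give a p below 0.1, so single days were not tested in this way. Single probe sets were tested with limma on all 15923 rows. Median intensities of the 18 arrays ranged from 174 to 233, and correlations between arrays from 0.942 to 0.971.

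The difference in Actb level between burn and sham liver was not the same on the 3 days. On day 2 the burn arrays stood at 12.96, 13.00 and 13.17 and the sham arrays at 12.84, 12.82 and 13.05, and the groups overlapped. On day 4 the burn arrays stood at 12.46, 12.48 and 12.37, all below the sham arrays at 12.83, 12.83 and 12.82. On day 7 the burn arrays stood at 12.85, 12.82 and 12.91, all above the sham arrays at 12.40, 12.66 and 12.17. Burn minus sham thus came to 0.14, -0.39 and 0.45 in the order of the days. These signs were the same on values as deposited, with median scaling and with scaling to the hybridization controls, which are foreign transcripts added just before hybridization. The sizes depended on the scaling. With median scaling the differences came to 0.26, -0.28 and 0.25, and with scaling to the hybridization controls to 0.22, -0.12 and 0.36.

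The spread of the 3 differences (SD 0.42) passed the test that the burn effect on Actb differed between days (exact permutation p = 0.002, adjusted p = 0.0214). Averaged over days, Actb stood at 12.78 ± 0.28 in burn and 12.71 ± 0.27 in sham liver (SD, n = 9 each), and this difference of 0.066 did not pass (exact permutation p = 0.546, adjusted p = 0.624). The call of a differing effect was lost without burn day 7 replicate 1, 2 or 3 (exact permutation, adjusted p = 0.0571, 0.06 and 0.0571), with the 3' probe set alone (0.0814) and with scaling to the hybridization controls (0.271). It was kept without the burn day 2 array described as sham (exact permutation, adjusted p = 0.036).

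**Figure D1:**
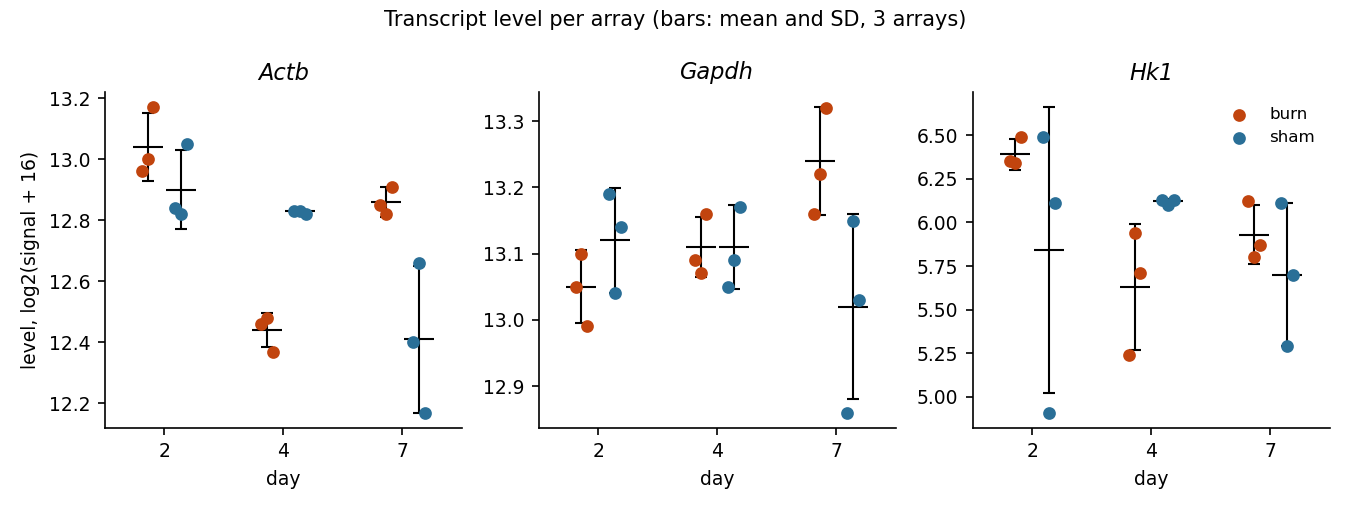
Level of Actb, Gapdh and Hk1 on each of 18 arrays (vertical axis, log2(signal + 16) after quantile normalization, with its own scale for each transcript) by day (horizontal axis) for burn and sham arrays, with the mean and SD of 3 arrays. Actb burn arrays lie below sham on day 4 (means 12.44 and 12.83) and above sham on day 7 (12.86 and 12.41).

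Within burn liver, Actb differed between days. It averaged 13.04 ± 0.11 on day 2, 12.44 ± 0.055 on day 4 and 12.86 ± 0.048 on day 7 (SD, n = 3 each). The day 4 arrays were the lowest of the 9, and the test of differences between days passed (exact permutation p = 0.00357, the smallest these arrays allow, adjusted p = 0.0214). Within sham liver the means were 12.90 ± 0.13, 12.83 ± 0.0025 and 12.41 ± 0.24 (SD, n = 3 each). All sham arrays of day 7 lay below those of days 2 and 4, but the test did not pass (exact permutation p = 0.0143, adjusted p = 0.0571). The burn call was lost without burn day 2 replicate 3 (exact permutation, adjusted p = 0.0571), without burn day 7 replicate 1, 2 or 3 (0.0571, 0.06 and 0.0571) and with the 3' probe set alone (0.0814), and was kept without the array described as sham (0.0429). The sham test passed on values as deposited (exact permutation, adjusted p = 0.0286) and without burn day 4 replicate 2, which changes only the adjustment (0.0495). With median scaling the range between sham days was 0.217 in place of 0.49 and with the 3' probe set alone 0.22, and neither passed (exact permutation, adjusted p = 0.171 and 0.186).

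The probe sets of Actb did not shift by the same amount. On the log2 scale the 5' row had the widest range of the 3, from 11.17 to 12.73, against 12.84 to 13.74 for the M row and 12.42 to 13.04 for the 3' row. Its deposited intensity on day 2 was 6270, 6203 and 6669 on burn arrays and 4110, 4469 and 5628 on sham arrays. On day 4 it was 3349, 3401 and 3128 on burn arrays and 3790, 4755 and 4444 on sham arrays. On day 7 it was 5255, 4801 and 5091 on burn arrays and 2836, 3817 and 2433 on sham arrays. Burn lay above sham on days 2 and 7 and below it on day 4 as deposited. After quantile normalization, the day 2 groups of this row overlapped.

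In deposited intensity the 3' row of Actb ran from 5487 to 8234 over the 18 arrays, the M row from 7786 to 13887 and the 5' row from 2433 to 6669. On day 7 the limma difference, burn minus sham, was 0.11 ± 0.12 for the 3' row, 0.36 ± 0.12 for the M row and 0.87 ± 0.17 for the 5' row (SE, n = 3 each), with limma adjusted p = 0.827, 0.325 and 0.0792. On day 4 it was -0.34, -0.37 and -0.46 in the same order (limma adjusted p = 0.396, 0.379 and 0.439). On day 2 it was 0.0016, 0.043 and 0.37 (limma adjusted p = 0.999, 0.955 and 0.571). On day 4 the differences were of like size in all 3 rows, and on day 7 that of the 5' row was the largest; whether rows of Actb differed from each other was tested only through the 3' over 5' ratio.

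No control row passed the adjusted limma threshold of 0.05 for burn against sham on any single day or averaged over days. Among all rows, 0% passed on day 2, 0% on day 4, 0.0502% on day 7 and 0.214% on average. Without sham day 7 replicate 2, 2 control rows passed on day 7 (smallest limma adjusted p = 0.0134). The share of all rows was not counted in that fit, so this count has no background beside it. The shares given here belong to the main fit. At an unadjusted limma p under 0.05, 0 of 9 control rows passed on day 2, against 8.8% of all rows. On day 4, 4 of 9 were lower in burn, against 4.39% of all rows, namely the 3 rows of Actb and the M row of Hk1. On day 7, 4 of 9 were higher in burn, against 5.36% of all rows, namely the M and 5' rows of Actb, the 5' row of Gapdh and the M row of Hk1. Averaged over days, 1 of 9 passed, the 5' row of Actb, against 10.2% of all rows. The shares of all rows on days 4 and 7 count only the direction that the control rows took. Those of day 2 and of the average count both directions, so the shares are not comparable between days. The rows of 1 transcript are not independent of each other.

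Between days within an arm, 1 of 9 control rows passed the adjusted limma threshold in 1 comparison. In burn liver the 5' row of Actb was lower on day 4 than on day 2, with a log2 difference of -0.93 ± 0.17 (SE, n = 3 each, limma adjusted p = 0.0419), where 0.22% of all rows passed. The M row differed by -0.53 and the 3' row by -0.36 (limma adjusted p = 0.0979 and 0.231). A control row was called in this comparison in 4 of 18 fits that left out 1 array, each a sham array outside the comparison. Which of the 9 rows was called in those fits was not recorded. No control row was called in the fits without a burn array of day 2 or 4. In those fits the smallest limma adjusted p of any control row was 0.0747 to 0.129, and 0.0989 without the array described as sham. The share of all rows was counted only in the main fit, not in fits that left out 1 array. In sham liver, day 7 minus day 2 was -0.77 for the 5' row, -0.49 for the M row and -0.22 for the 3' row of Actb (limma adjusted p = 0.112, 0.144 and 0.455), where 0.0126% of all rows passed. The adjusted threshold was passed by 0 of 9 control rows in the other comparisons of days, against 0.138% of all rows for burn day 7 minus day 2, 0.0816% for burn day 7 minus day 4, 0% for sham day 4 minus day 2 and 0.0628% for sham day 7 minus day 4.

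At an unadjusted limma p under 0.05, the 3 comparisons of burn days gave 4 of 9 control rows for day 4 minus day 2 (11.8% of all rows), 1 of 9 for day 7 minus day 2 (13.3%) and 3 of 9 for day 7 minus day 4 (11.8%). The comparisons of sham days gave 0 of 9 for day 4 minus day 2 (10.2%), 3 of 9 for day 7 minus day 2 (13.1%) and 3 of 9 for day 7 minus day 4 (14.8%). The limma F tests passed the adjusted threshold in 0 of 9 control rows for a burn effect differing between days (0% of all rows), for burn days (0.333%) and for sham days (0.0502%). Unadjusted, they passed in 5 of 9 (9.45%), 5 of 9 (15%) and 3 of 9 (15.6%).

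**Figure D2:**
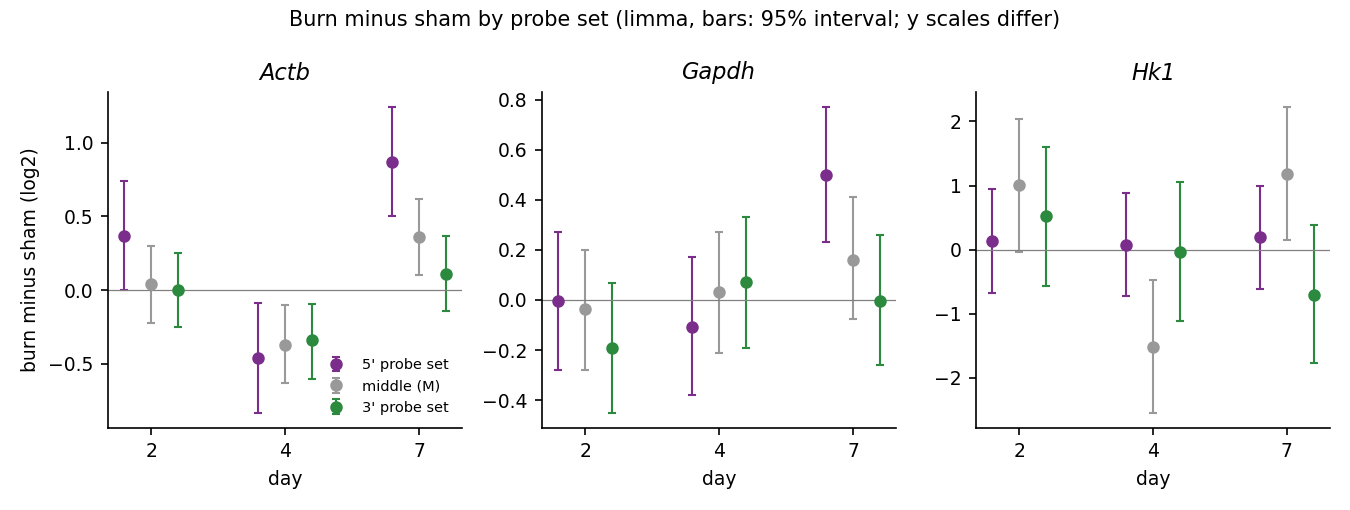
Burn minus sham for each of the 9 control probe sets (log2 difference after quantile normalization, vertical axis with its own scale for each transcript, and bars for the 95% intervals from limma) on days 2, 4 and 7 (horizontal axis). On day 7 the Actb difference is 0.11 for the 3' row, 0.36 for the M row and 0.87 for the 5' row, and for Gapdh -0.0033, 0.16 and 0.50.

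The mean level of Gapdh stayed within a narrower band than that of Actb. On day 2 the burn arrays stood at 13.05, 13.10 and 12.99 and the sham arrays at 13.19, 13.04 and 13.14. On day 4 burn stood at 13.09, 13.07 and 13.16 and sham at 13.05, 13.09 and 13.17. On day 7 burn stood at 13.16, 13.22 and 13.32, all above sham at 12.86, 13.15 and 13.03, whereas the groups overlapped on the other days. Over the 18 arrays the SD of the level was 0.10 for Gapdh and 0.27 for Actb, a description of spread that was not tested. For the 3', M and 5' rows the SD was 0.13, 0.10 and 0.19 for Gapdh and 0.17, 0.24 and 0.44 for Actb. The 2 transcripts thus differed least in their 3' rows. The level of Gapdh also averages 3' and 5' rows that correlated at -0.209.

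No difference in Gapdh level passed after adjustment. Averaged over days, burn liver stood at 13.13 ± 0.10 and sham liver at 13.08 ± 0.10 (SD, n = 9 each), which did not pass (exact permutation p = 0.377, adjusted p = 0.503). By day the burn arrays differed from sham by -0.078 (day 2), -0.00076 (day 4) and 0.22 (day 7) (SD 0.16, exact permutation p = 0.0248, adjusted p = 0.066), a spread that passed only without sham day 2 replicate 2 among the 27 alternatives (0.0396). The sign on day 2 turned with median scaling (0.028), and that on day 4 with the values as deposited (0.037), median scaling (0.094) and scaling to the hybridization controls (0.26). With median scaling the day 7 difference was 0.043 and the spread 0.0344 (exact permutation, adjusted p = 0.901). Between days, neither burn (exact permutation p = 0.0179, adjusted p = 0.0612) nor sham (p = 0.404, adjusted p = 0.51) passed.

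Within Gapdh, too, the 5' row differed more between the arms on day 7 than the 3' row. The deposited intensity of the 5' row on day 7 was 8088, 8112 and 9031 on burn and 5951, 7294 and 5607 on sham arrays, with no overlap. That of the 3' row was 10523, 11002 and 12134 on burn and 10149, 11441 and 13077 on sham arrays, with overlap. The limma difference was 0.50 ± 0.13 for the 5' row (SE, n = 3 each, 95% interval 0.23 to 0.77, limma adjusted p = 0.169), 0.16 for the M row and -0.0033 for the 3' row.

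Hk1 was dim, and its values scattered. The deposited intensities of its 3 rows ranged from 8.5 to 204 over the 18 arrays, and no row was above the array's median on any array. The 27 control rows for bacterial poly(A) transcripts, whose medians here were 1.9 to 98.2, gave a scale for such dim signals. The 3', M and 5' rows of Hk1 were at or below the brightest of those rows on 16, 12 and 17 of 18 arrays. The M row gave the largest differences. On day 4 it stood at 21.7, 66.6 and 11.6 on burn arrays, all below 102.7, 72.7 and 203.9 on sham arrays. On day 7 it stood at 88.6, 144.9 and 158 on burn arrays, all above 65.3, 55.8 and 16.2 on sham arrays. The limma differences were -1.51 ± 0.49 and 1.18 ± 0.49 (SE, n = 3 each, limma adjusted p = 0.356 and 0.433). The other rows of Hk1 did not share these differences. The 3' row stood at -0.031 on day 4 and, with the opposite sign to the M row, at -0.70 on day 7, and the 5' row at 0.076 and 0.20 (limma adjusted p = 0.994, 0.721, 0.98 and 0.925).

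The mean level of Hk1 did not pass any test after adjustment. On day 2 the burn arrays stood at 6.35, 6.34 and 6.49 and the sham arrays at 6.49, 4.91 and 6.11. On day 4 burn stood at 5.24, 5.94 and 5.71, below sham at 6.13, 6.10 and 6.13. On day 7 burn stood at 6.12, 5.80 and 5.87 and sham at 6.11, 5.29 and 5.70, which overlapped. The difference of the arms came to 0.56, -0.49 and 0.23 in the order of the days (SD 0.53, exact permutation p = 0.0465, adjusted p = 0.101). This spread passed without sham day 2 replicate 1 (exact permutation, adjusted p = 0.0429) and without burn day 4 replicate 2 (0.0495). The burn arrays of the 3 days averaged 6.39 ± 0.087, 5.63 ± 0.36 and 5.93 ± 0.17 (SD, n = 3 each, with exact permutation p = 0.0107, adjusted p = 0.0514), a test that passed on values as deposited (exact permutation, adjusted p = 0.0171) and with a pseudocount of 64 (0.0343). It also passed without burn day 4 replicate 2 (exact permutation, adjusted p = 0.0214). Leaving out sham day 2 replicate 1 or 2 or sham day 4 replicate 2 changes only the adjustment. In each of these cases the adjusted p was 0.0429 (exact permutation). Averaged over days, burn minus sham was 0.10 (exact permutation p = 0.694, adjusted p = 0.724), and -0.0558 without sham day 2 replicate 2. Sham days did not pass (exact permutation p = 0.582, adjusted p = 0.635).

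Control rows whose 3 burn and 3 sham arrays did not overlap were counted in each day. On day 2 these were 2 of 9, the 3' row of Gapdh (lower in burn) and the M row of Hk1 (higher), against 13.2% of all rows. On day 4 they were 5 of 9, all lower in burn (7.23% of all rows), namely the 3 rows of Actb, the 5' row of Gapdh and the M row of Hk1. On day 7 they were 4 of 9, all higher in burn (7.86% of all rows), namely the M and 5' rows of Actb, the 5' row of Gapdh and the M row of Hk1. Of these, the 3' row of Gapdh on day 2 and its 5' row on day 4 overlapped on values as deposited, where burn reached 10438 against sham from 9286, and 7677 against sham from 7144. The share of all rows counts both directions on day 2, but on days 4 and 7 only the direction that the control rows took.

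The 3' over 5' ratio of Actb differed between the days of burn liver. On day 2 it was 0.11, 0.35 and 0.31 on burn and 0.91, 0.62 and 0.34 on sham arrays. On day 4 it was 0.75, 0.92 and 0.80 on burn and 0.99, 0.52 and 0.62 on sham arrays. On day 7 it was 0.37, 0.42 and 0.45 on burn arrays, all below 1.29, 0.89 and 1.34 on sham arrays. As deposited linear values, the ratio ran from 1.09 to 2.51. The burn days averaged 0.26 ± 0.13, 0.82 ± 0.092 and 0.41 ± 0.039 (SD, n = 3 each). Every day 4 array lay above those of the other days, and the test passed (exact permutation p = 0.00357, adjusted p = 0.0214). The sham days averaged 0.62 ± 0.28, 0.71 ± 0.24 and 1.17 ± 0.25 (SD, n = 3 each) and did not pass (exact permutation p = 0.146, adjusted p = 0.22).

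Averaged over days, the Actb ratio was 0.50 ± 0.27 in burn and 0.84 ± 0.34 in sham liver (SD, n = 9 each), a difference of -0.34 that did not pass (exact permutation p = 0.0238, adjusted p = 0.066). By day it was -0.37, 0.11 and -0.76, and this spread did not pass either (exact permutation p = 0.0638, adjusted p = 0.119). The mean difference passed when the second replicate of burn day 4, or that of sham day 4, was left out (exact permutation, adjusted p = 0.0495 and 0.0429). The difference between burn days was lost without burn day 2 replicate 1, the array described as sham (exact permutation, adjusted p = 0.0571), without burn day 7 replicate 1, 2 or 3 (0.0571, 0.06 and 0.0571) and with the M row in place of the 5' row (0.0694).

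The ratio of Gapdh had its highest burn values on the same day. On day 2 it was 0.20, 0.34 and 0.30 on burn and 0.66, 0.51 and 0.23 on sham arrays. On day 4 it was 0.46, 0.74 and 0.53 on burn and 0.30, 0.31 and 0.60 on sham arrays. On day 7 it was 0.43, 0.40 and 0.35 on burn arrays, all below 0.77, 0.66 and 1.27 on sham arrays. The burn days averaged 0.28 ± 0.071, 0.58 ± 0.15 and 0.39 ± 0.043 (SD, n = 3 each) and differed (exact permutation p = 0.00357, adjusted p = 0.0214). The sham days averaged 0.46 ± 0.22, 0.40 ± 0.17 and 0.90 ± 0.33 (SD, n = 3 each), without passing (exact permutation p = 0.0929, adjusted p = 0.159).

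Burn minus sham for the Gapdh ratio was -0.19, 0.18 and -0.50 on days 2, 4 and 7, a spread that did not pass after adjustment (exact permutation p = 0.0333, adjusted p = 0.0798), nor did the mean difference of -0.17 (p = 0.141, adjusted p = 0.22). The call between burn days was lost without burn day 2 replicate 1, 2 or 3 (exact permutation, adjusted p = 0.111, 0.0571 and 0.0686), without burn day 7 replicate 1, 2 or 3 (0.0857, 0.0714 and 0.0686) and with the M row in place of the 5' row (0.105).

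**Figure D3:**
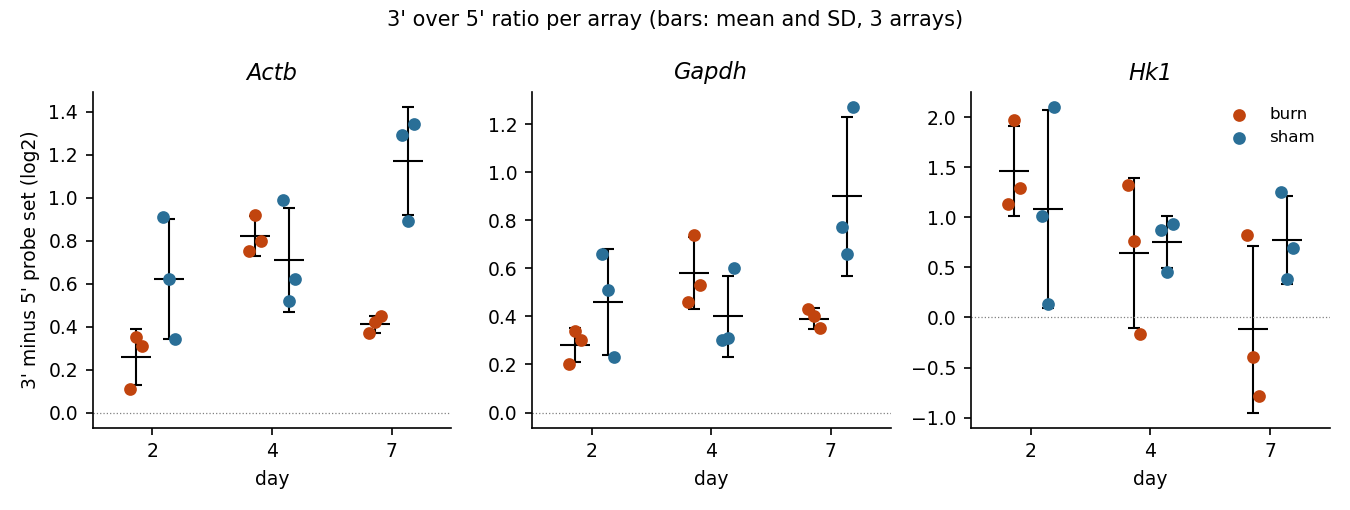
The 3' over 5' ratio of each transcript on each of 18 arrays (vertical axis, log2 difference of the 3' and 5' probe sets, with its own scale for each transcript) by day (horizontal axis) for burn and sham arrays, with the mean and SD of 3 arrays. In sham liver on day 7 the ratio averages 1.17 for Actb and 0.90 for Gapdh, against 0.41 and 0.39 in burn liver.

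The ratio of Hk1 is taken between rows that lay within the range of the bacterial poly(A) control rows on 16 (3') and 17 (5') of 18 arrays, with 5' intensities of 8.5 to 50.3. At such signals it says little about the transcript, and its values are given as a description. It was 1.13, 1.97 and 1.29 on burn and 1.01, 0.13 and 2.10 on sham arrays of day 2. On day 4 it was 1.32, 0.76 and -0.17 on burn and 0.87, 0.45 and 0.93 on sham arrays. On day 7 it was 0.82, -0.39 and -0.78 on burn and 1.25, 0.38 and 0.69 on sham arrays. As deposited, it ran from 0.317 to 9.27. No test of it passed (exact permutation, adjusted p = 0.624 for the mean difference, 0.389 for the effect between days, 0.119 and 0.843 for the days of burn and sham).

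The ratios of Actb and Gapdh went together from array to array. Over the 18 arrays Pearson's r was 0.822 (permutation p = 1e-05, the smallest the resampling can give, adjusted p = 6e-05 over 6 relations) and Spearman's rho 0.769 (permutation p = 0.00033, adjusted p = 0.00198). Without sham day 7 replicates 1 and 3, the arrays farthest from the median, r was 0.72 (permutation p = 0.00241, adjusted p = 0.0145). It was 0.923 over the 9 burn arrays (exact permutation p = 0.000102, adjusted p = 0.000612) and 0.778 over the 9 sham arrays (exact permutation p = 0.0101, adjusted p = 0.0606). Within each of days 2, 4 and 7, it was 0.97, 0.18 and 0.892 (exact permutation, adjusted p = 0.025, 1 and 0.05, n = 6 each). For deviations from the 6 group means, r was 0.573 and did not pass (exact permutation p = 0.128, adjusted p = 0.768). The pooled relation therefore includes differences between groups, and r within a day still includes the difference of the arms. Likewise, r over the arrays of 1 arm still includes differences between its days, and both ratios differed between burn days. Among single days, r passed only on day 2, and whether r differed between days was not tested.

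**Figure D4:**
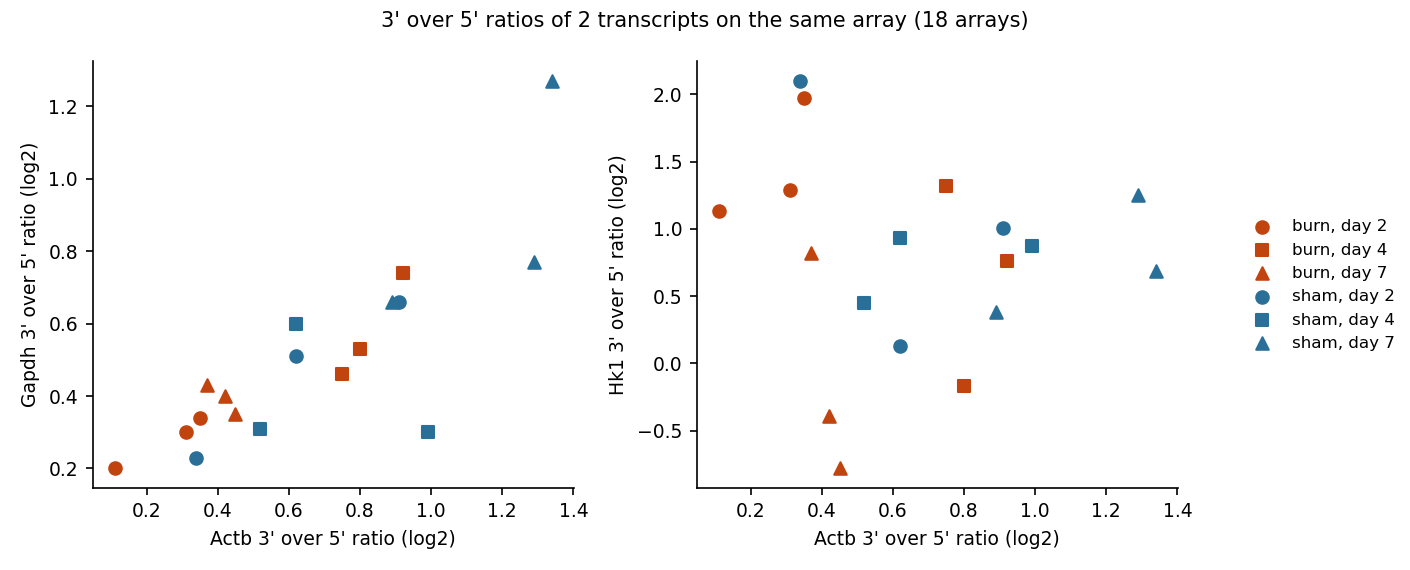
The 3' over 5' ratio of Gapdh (left) and Hk1 (right) on the vertical axes against that of Actb on the horizontal axes (log2), 1 point for each of 18 arrays, coloured by arm and shaped by day. Gapdh points rise with Actb (Pearson's r 0.822), with 2 sham arrays of day 7 farthest to the right, and Hk1 points show no such line (-0.0801).

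No relation of the Hk1 ratio to the others passed, and at signals this dim the lack of one says nothing about the transcript. Pearson's r was -0.0801 with the Actb ratio and -0.116 with the Gapdh ratio (permutation p = 0.754 and 0.642, adjusted p = 0.842 for each), and Spearman's rho was -0.232 and -0.257 (permutation p = 0.352 and 0.301, adjusted p = 0.528 for each). Without sham day 7 replicates 1 and 3, r was -0.202 and -0.247 (permutation p = 0.455 and 0.357).

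The levels of the transcripts agreed less than the ratios of Actb and Gapdh did, a difference that was not tested. For Actb and Gapdh, r was 0.265 and rho 0.193 (permutation p = 0.289 and 0.44, adjusted p = 0.579 and 0.528), and r was 0.29 without the 2 farthest arrays. Without sham day 7 replicate 1 it was 0.0937 and without burn day 2 replicate 3 it was 0.431 (permutation, adjusted p = 0.877 and 0.25). For Gapdh and Hk1, r was -0.0499 and rho 0.0031 (permutation p = 0.842 and 0.993). For Actb and Hk1, r was 0.46 (permutation p = 0.0551, adjusted p = 0.165) and rho 0.711 (permutation p = 0.00143, adjusted p = 0.00429), and r was 0.457 without the 2 farthest arrays. Without sham day 2 replicate 2 it was 0.617 (permutation, adjusted p = 0.0294). Over the burn arrays this r was 0.795 (exact permutation p = 0.00883, adjusted p = 0.0265), over the sham arrays 0.18 (p = 0.661), and for deviations from group means -0.0188 (exact permutation p = 0.95). The r over 1 arm includes differences between its days. The rows of Hk1 did not share the relation to Actb. Its M row correlated with the Actb rows at 0.661 to 0.738. Its 3' row did so at 0.0608 to 0.17 and its 5' row at -0.224 to -0.195. The level of Hk1 rests on signals as dim as those of its ratio. With scaling to the hybridization controls, r was 0.81 for Actb and Gapdh, 0.816 for Actb and Hk1 and 0.637 for Gapdh and Hk1 (permutation, adjusted p = 0.0003, 0.0008 and 0.00585), a scaling that moves all rows of an array together.

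How closely the probe sets of 1 transcript tracked each other over the 18 arrays was set against all other rows, as a description without a test, since all rows share the same arrays. For Actb the M and 5' rows correlated at 0.909, and the 5' row ranked 2 among the 15922 other rows by correlation with the M row. The 3' and M rows correlated at 0.862 and the 3' and 5' rows at 0.685. By correlation with the 3' row of Actb, its M row ranked 2 and its 5' row 54. For Gapdh the 3' and M rows correlated at 0.675 but the 3' and 5' rows at -0.209. By correlation with the 3' row of Gapdh, its M row ranked 53 and its 5' row 11874. The 5' row of Gapdh correlated at 0.79 with the 5' row of Actb. By correlation with the 5' row of Actb it ranked only 99, so many other rows followed that row more closely. By correlation with the 5' row of Gapdh, the 5' row of Actb ranked 32. In these arrays the 5' row of Gapdh thus had a higher correlation with the 5' row of Actb than with either other row of Gapdh, the M row standing at 0.394. The 3 rows of Hk1 correlated with each other at -0.0577 to 0.231, and its M row at 0.738 with the 3' row of Actb.

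Values of the added controls stand beside these results. The hybridization controls, 18 rows for transcripts added after labelling, averaged 10.37, 10.63 and 10.79 in burn and 10.38, 10.84 and 10.78 in sham liver on days 2, 4 and 7. Scaled to them, Actb differed between burn days (exact permutation, adjusted p = 0.0286), whereas the burn differences of Gapdh between day 2 and days 4 and 7 turned to -0.23 and -0.27, with the median of all rows at -0.24 and -0.43. The 3' over 5' ratio of 1 pair of cre control rows averaged 0.56, 0.67 and 0.34 in burn and 0.72, 0.48 and 0.28 in sham liver, and that of the other pair 0.88, 0.79 and 0.71 in burn and 0.83, 0.72 and 0.90 in sham liver. In the first pair, sham day 7 had the lowest mean. In the second pair it had the highest after quantile normalization, but as deposited linear values it averaged 1.84 and burn day 2 averaged 1.85. The part of array handling, RNA quality or labelling in the Actb and Gapdh results was not tested.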

How the data were processed

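Liver RNA was measured on 24 arrays, per the labels. The deposited table holds 1 linear intensity for each of 15923 probe sets and array. The authors' files show each array scaled to a common trimmed mean of 500.2 (2% left out at each tail), and no source used here names the software. Pixel-level data and detection calls were not used here, so whether dim rows such as those of Hk1 were detected was not assessed. The number of arrays limits the precision. Intensities were turned to log2(signal + 16) and quantile-normalized over 24 arrays. No dim rows were left out. Groups follow the titles.

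limma 3.58.1 (R 4.3.3) was fitted to 18 arrays with 6 group means (12 residual degrees of freedom), with Benjamini-Hochberg adjustment over all rows and a threshold of 0.05. Levels, ratios and correlations were tested by permutation over arrays (scipy 1.17.1, numpy 2.4.6), exact or, in the main setting, with 100000 resamples. Both were tested on simulated data. Correlations under the alternatives used fewer resamples, with a smallest possible permutation p of 0.0001. The named rows were all 9 control rows. The members and lists were chosen with earlier results of these data known. Alternatives covered scaling, pseudocount (1 and 64), dim rows, probe set, variance model, replicate block and leaving out each array; scaling to the hybridization controls was added after seeing the data.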

Additional observations from a re-analysis of the deposited data

Results flagged for a closer look

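The burn effect on the level of Actb differed between days 2, 4 and 7, with an SD of the 3 differences of 0.42 on the log2 scale (exact permutation p = 0.002, adjusted p = 0.0214 over 24 tests). For the level of Gapdh this SD was 0.16 (exact permutation p = 0.0248, adjusted p = 0.066). For the 3' over 5' ratio of Gapdh it was 0.34 (exact permutation p = 0.0333, adjusted p = 0.0798). For the level of Hk1 it was 0.53 (exact permutation p = 0.0465, adjusted p = 0.101). Of these 4 results, chosen by unadjusted p, only that on Actb passed after adjustment. With 3 arrays a group, single arrays were not tested for standing apart.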

How the results depend on the processing

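The relation of the Actb and Gapdh ratios kept its direction and call in 25 of 25 alternatives (r 0.656 to 0.911). All of these repeated the pooled correlation, which includes differences between groups. Not all of the alternatives were separate. Values as deposited and median scaling have the same ratios (r 0.803 in each), and the array described as sham was also among the arrays left out singly. For deviations from group means, r was 0.573 and did not pass (exact permutation, adjusted p = 0.768). On values as deposited, the Actb sham range was 0.385, the Hk1 burn range 0.8 and r of Actb and Hk1 levels 0.652, all now past the threshold, and 1 control row was called over burn days. With median scaling the last r was 0.636, that of Gapdh and Hk1 levels turned to 0.0116, and 1 row was called over burn days. With a pseudocount of 64 the Hk1 burn range was 0.47, r of Gapdh and Hk1 levels 0.00394, and 1 row was called on day 7 and 1 over burn days. With a pseudocount of 1, 0 rows were called for burn day 4 against day 2. With scaling to the hybridization controls, chosen after seeing the data, the SD for Actb was 0.248, the correlations of levels 0.81, 0.816 and 0.637 (Gapdh and Hk1, turned), and 0 rows were called for burn day 4 against day 2, 4 for sham day 7 against day 2 and 1 over sham days. With the 3' row alone, burn minus sham turned to -0.0764 (Actb), -0.0415 (Gapdh) and -0.0687 (Hk1), the SD for Actb was 0.239, its burn range 0.361, and r of Actb and Gapdh levels -0.356. With 3' over M, the burn ranges were 0.165 (Actb) and 0.127 (Gapdh), and r with the Hk1 ratio turned to 0.269 and 0.118. Without the array described as sham, the burn ranges of the ratios were 0.492 and 0.262, and 0 rows were called for burn day 4 against day 2. With an intensity trend and robust variance, limma called 1 row on day 7, 2 for burn day 4 against day 2, 2 over burn days and 1 over sham days. Without the dimmest 33.3% of rows, which left out the Hk1 rows, 1 was called over burn days. The share of all rows called was counted only in the main fit, so these counts of control rows have no background beside them. Scaled to the hybridization controls, sham day 7 minus day 2 had the median of all rows at -0.59. The cause of these changes was not tested.

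Leaving out 1 array at a time, the lost or gained results ranged as follows. For Actb, the SD of differences was 0.372 to 0.482, the burn range 0.54 to 0.648, the sham range 0.373 to 0.617, the mean ratio difference -0.386 to -0.29 and the burn ratio range 0.492 to 0.613. For Gapdh, the SD was 0.113 to 0.193 and the burn ratio range 0.22 to 0.36. For Hk1, burn minus sham was -0.0558 to 0.207, the SD 0.38 to 0.685 and the burn range 0.567 to 0.92. The correlation of levels was 0.383 to 0.617 for Actb and Hk1 and -0.184 to 0.0468 for Gapdh and Hk1, and that of ratios -0.19 to 0.0291 and -0.228 to 0.00346. Control rows called by limma ranged from 0 to 2 on day 7. They ranged from 0 to 1 for burn day 4 against day 2, sham day 7 against day 4, the effect differing between days and the burn days. The share of all rows was not counted in these fits.

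Same-numbered arrays correlated at -0.0339 to 0.167 in 9 pairs, 2 above 0.1, so the numbers were not taken as pairs; 5 of 9 arrays correlated best with their own number. With the replicate block, the SD for Actb was 0.423 with an adjusted exact permutation p of 0.0938, and no other call changed. No block could be fitted for days within an arm.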
